A study of Homo sapiens with 2 samples.

Results

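Every CpG that the deposited tables list on the mitochondrial chromosome, chrM, was taken: 435 of the 29175883 CpGs listed on chromosomes 1 to 22, X and M. All 435 were listed and covered in both libraries. The libraries come from H9, a line of human embryonic stem cells, grown undifferentiated on Matrigel in mTeSR medium, as 2 replicates of 1 group with no treated group. The assay was ATAC-Me, in which a transposase inserts adapters into DNA it can reach and unmethylated cytosines are then converted, so that each fragment gives accessibility and methylation together. The labels do not say whether separate cultures were used, so what differs between the replicates may be technical. A peak lay within 1000 bp of an end of 6 of 7 pluripotency marker genes and of 4 of 11 markers of other cell types, namely COL1A1, COL1A2, PAX6 and SOX1. Of 11898 protein-coding genes with a measured start, 81% had a peak within 1000 bp of it, so the pluripotency count is near that background.

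Mitochondrial DNA is a small circle, present in many copies per cell, that carries no histones and is packed by TFAM into nucleoids. It encodes subunits of the respiratory chain and of ATP synthase, the ribosomal RNAs of the mitochondrial ribosome and a set of tRNAs. Its control region holds the promoters of both strands and the origin of heavy-strand replication. Whether mammalian mitochondrial DNA carries CpG methylation beyond traces is disputed. Low values are also sensitive to cytosines that fail to convert and to reads shared with nuclear copies of mitochondrial DNA.

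The mitochondrial sequence itself was not used here. RefSeq sequences of GRCh38.p14 are given for 3 nuclear stretches that bear on the chrM values, with every CpG in capitals. The promoter window of LOC101928626, chr1:628960-629259 on the minus strand, overlaps the start of a nuclear copy of mitochondrial DNA. Its 7 CpGs match those at chrM positions 3921 to 4050 in ND1. The hairpin of MIR12136, chr1:632615-632685 on the minus strand, lies in the same copy, and its 1 CpG matches chrM position 7462 in TRNS1. The promoter of TFAM, chr10:58385160-58385459 on the plus strand, is shown because TFAM packs mitochondrial DNA and takes part in its transcription.
LOC101928626: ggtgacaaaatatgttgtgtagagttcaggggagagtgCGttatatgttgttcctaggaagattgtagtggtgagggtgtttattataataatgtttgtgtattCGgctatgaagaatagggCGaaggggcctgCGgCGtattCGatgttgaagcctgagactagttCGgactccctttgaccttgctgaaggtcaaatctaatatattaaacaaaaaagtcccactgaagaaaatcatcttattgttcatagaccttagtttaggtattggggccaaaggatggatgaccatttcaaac
MIR12136 hairpin: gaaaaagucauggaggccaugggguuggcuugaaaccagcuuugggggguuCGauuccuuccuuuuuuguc
TFAM: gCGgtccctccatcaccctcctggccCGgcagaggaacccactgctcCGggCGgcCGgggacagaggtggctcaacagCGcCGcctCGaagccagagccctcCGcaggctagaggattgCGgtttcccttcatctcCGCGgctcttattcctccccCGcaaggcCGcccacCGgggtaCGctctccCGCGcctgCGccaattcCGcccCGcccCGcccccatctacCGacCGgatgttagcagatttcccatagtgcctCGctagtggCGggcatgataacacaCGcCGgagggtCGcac

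Mitochondrial CpGs were covered far more deeply than nuclear ones. They held 21952388 reads in replicate 1 and 19971881 reads in replicate 2, where a read that covers several CpGs counts at each of them. That was 42.9% of all 51223085 CpG reads of replicate 1 and 27.5% of all 72730537 CpG reads of replicate 2. A mitochondrial CpG had on average 50465 and 45912 reads in replicates 1 and 2, against 3.24 and 3.13 reads per covered CpG on the autosomes. The share depends on the copies of mitochondrial DNA per cell and on how much of it stayed with the isolated chromatin, which cannot be told apart here. The caller's list held 0 peaks on chrM.

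Reads along chrM kept the same profile in both replicates, with a Pearson r of 0.897 and a Spearman rho of 0.849 over the 435 CpGs, which share molecules and are not independent. In replicate 1 reads per CpG ran from 2576 to 75497, with a median of 52682, and in replicate 2 from 3664 to 68416, with a median of 48528. The lowest value of both libraries was at position 16565 in the control region, beside the point where the circle is cut to give numbered coordinates. A narrow dip of 9012 and 6388 reads lay at position 315 in the control region. Another lay in RNR2, the large ribosomal RNA gene, with 7457 and 7319 reads at position 3126. The deepest CpG was at position 13405 in ND5 in replicate 1 and at position 10670 in ND4L in replicate 2. All 435 CpGs had at least 100 reads in each library.

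**Figure D1:**
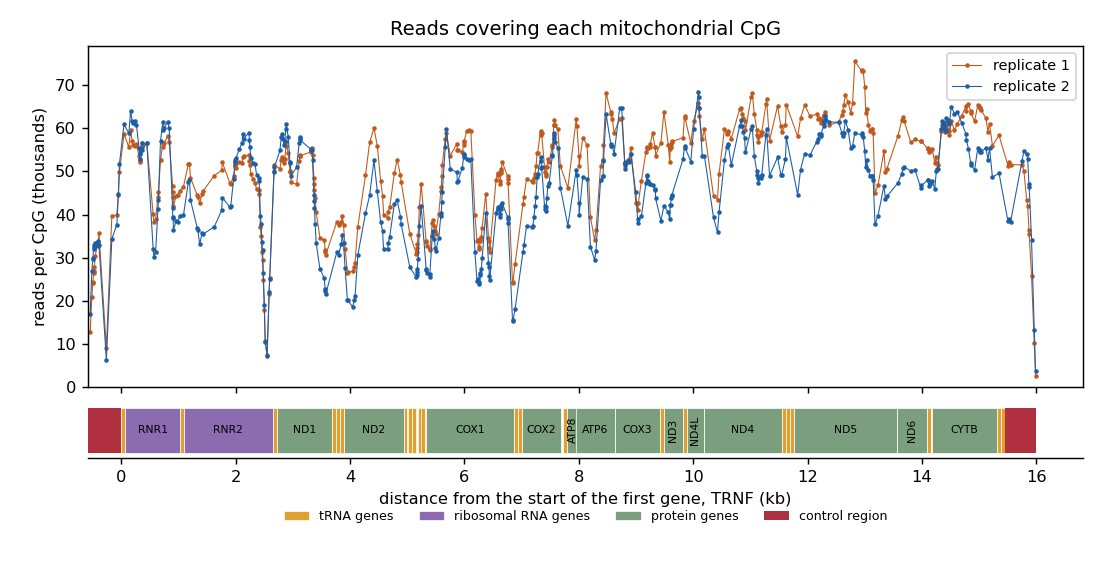
Reads covering each of the 435 mitochondrial CpGs, in units of 1000, against distance from the start of TRNF in kb, with the genes drawn below; each point is 1 CpG and each line 1 replicate. Both replicates dip at the same places, to 9012 and 6388 reads in the control region, 7457 and 7319 reads near the end of RNR2, and 2576 and 3664 reads at the end of the numbered sequence.

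Methylation of chrM was low in both libraries, but not equally low. Summed over the 435 CpGs, 0.722% of reads were methylated in replicate 1 (95% Wilson interval 0.719% to 0.726%) and 2.41% in replicate 2 (2.40% to 2.42%). This pooled value is called the library level below. The median CpG was at 0.659% and 2.28% in replicates 1 and 2. Of the 435 CpGs, 433 in replicate 1 and 430 in replicate 2 stayed under 5%, and 1 CpG exceeded 10% in each. The library levels differed 3.34-fold, which is far outside their counting error.

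Set against the nuclear genome of the same library, chrM was lower than open chromatin as a whole. The chrM level of 0.722% and 2.41% stood against 2.82% and 3.51% over autosomal CpGs in peaks, a difference of -1.60 ± 0.705 percentage points (SD, n = 2). Autosomal CpGs outside peaks were at 61.1% and 70.03%, a difference of -64.0 ± 5.14 points. That second difference shrank to -13.5 points when only nuclear CpGs with at least 10 reads were counted. With 2 replicates an exact sign-flip permutation test cannot give a p below 0.5, so differences are given beside their spread alone.

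Against CpG-dense nuclear peaks, which are known to be nearly free of methylation, chrM was slightly higher in both libraries. Pooled for this were 5678 autosomal peaks holding 8 or more CpGs per 100 bp and 500 or more reads, without nuclear copies. The chrM levels of 0.722% and 2.41% stood against 0.541% and 1.47% in these peaks, a difference of 0.561 ± 0.537 points (SD, n = 2). It was no larger than its spread with at least 6 CpGs per 100 bp, at 0.538 ± 0.547 points. The ratio of the pooled levels was 1.34 in replicate 1 and 1.64 in replicate 2. The ratio of the median mitochondrial CpG to the median dense peak, added after seeing the data, sets single CpGs against whole peaks. It was 1.71 in replicate 1 and 1.74 in replicate 2. The dense peaks thus also read higher in replicate 2.

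**Figure D2:**
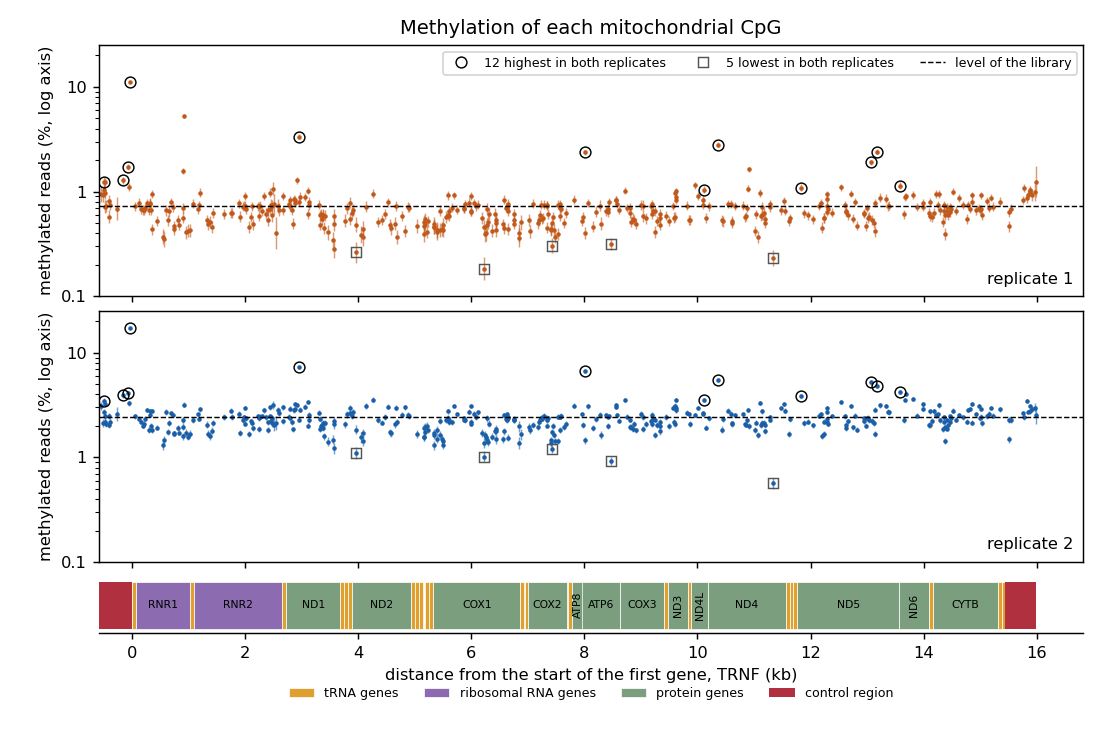
Methylated reads in percent on a log axis for each mitochondrial CpG, replicate 1 above replicate 2, against distance from the start of TRNF in kb; vertical lines are 95% Wilson intervals and the dashed line is the library level of 0.722% or 2.41%. Most CpGs lie close to the dashed line, while 12 circled CpGs lie high and 5 squared CpGs low in both panels, the highest reaching 11.2% and 17.3% in the control region.

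Among classes of sequence, the control region had the highest methylation. Its 28 CpGs, from position 16024 after the last gene around the circle to position 576 before the first, had 1.47% and 3.51% methylated reads in replicates 1 and 2, against 0.689% and 2.35% in the rest of chrM. The difference was 0.966 ± 0.264 points (SD, n = 2). It fell to 0.307 ± 0.109 points without the single highest CpG, at position 544. The 16 CpGs before the first gene, where the promoters of both strands lie, were at 2.07% and 4.32%, or 1.01% and 2.84% without position 544. The 12 CpGs after the last gene were at 0.829% and 2.64%. Control region CpGs were covered by 33302 and 35122 reads on average, fewer than those of protein genes, with 53355 and 47430 reads.

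The 3 kinds of genes lay close to one another and to the library level. The 307 CpGs of protein genes had 0.690% and 2.39% methylated reads, against 0.816% and 2.46% elsewhere on chrM, a difference of -0.0968 ± 0.0407 points (SD, n = 2). That sign rested on the highest control region CpG, since the difference was 0.0219 points without it. The 72 CpGs of the ribosomal RNA genes were at 0.716% and 2.22%, against 0.723% and 2.45% elsewhere, a difference of -0.119 ± 0.157 points that stayed within its spread. The 24 CpGs of tRNA genes were at 0.620% and 2.31%, against 0.728% and 2.42% elsewhere, a difference of -0.106 ± 0.00250 points. It shrank to -0.0262 ± 0.0371 points, within its spread, when the 12 highest CpGs were left out. The remaining 4 CpGs lay between genes, at positions 5737 to 5755, in the stretch known to hold the light-strand replication origin. They had 0.465% and 1.70% methylated reads and were below the library level in both replicates.

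Genes of complex IV, cytochrome c oxidase, were lower than the rest in both libraries. Their 107 CpGs in COX1, COX2 and COX3 had 0.601% and 2.12% methylated reads, against 0.760% and 2.50% elsewhere on chrM, a difference of -0.267 ± 0.153 points (SD, n = 2). None of the 12 highest CpGs lies in these genes, so all 12 raise only the value elsewhere. The difference without them was not computed and would be smaller in size. COX1 was at 0.607% and 2.12%, COX2 at 0.574% and 2.05%, and COX3 at 0.624% and 2.20%. Of the 107 CpGs, 79 were below the library level in both replicates, as were 233 of all 435 chrM CpGs. CYTB, the one mitochondrial gene of complex III, sat at the library level, with 0.715% and 2.43%. ATP6 and ATP8, subunits of ATP synthase, were at 0.725% and 2.50% and at 0.625% and 2.54%.

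Complex I, NADH dehydrogenase, had the genes of highest level. ND6, the only protein gene read from the other strand, had 0.832% and 3.28% methylated reads over 8 CpGs, which is 1.15 and 1.36 times the library level. ND4L was at 0.871% and 2.73% over 6 CpGs, ND3 at 0.754% and 2.72% over 9, and ND1 at 0.784% and 2.57% over 31. ND5 stood at 0.735% and 2.48%, and ND4 at 0.721% and 2.36%. ND2 went the other way in replicate 1, at 0.571% against a level of 0.722%, and sat at the level in replicate 2 with 2.39%. Where genes overlap, a shared CpG counts for both. Of the 13 protein genes, 6 were above the library level in both replicates and 5 were below it in both. Some of these values depended on single CpGs. Without the 12 highest CpGs, ND1 was at 0.696% and 2.40%, ND5 at 0.664% and 2.35%, and ATP6 at 0.634% and 2.29%. All of these lie below the library level of all 435 CpGs. ND4L and ND6 stayed above that level, at 0.836% and 2.56% and at 0.789% and 3.15%. Complex I as a whole was then at 0.942 and 1.004 times it, against 1.02 and 1.05 times with the 12 included. That level still counts the 12, which held 9.70% and 6.64% of the methylated reads of chrM. A level without the 12 would be lower and was not computed. Whether ND1, ND5, ATP6 or complex I lie above such a level is therefore not shown.

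Of the 22 tRNA genes, 13 held at least 1 CpG and 9 held none. Those with a CpG ranged from 0.65 to 1.11 times the library level in replicate 1 and from 0.69 to 1.19 times in replicate 2. TRNT, for threonine, was the highest in both, at 0.802% and 2.88%, and TRNA, TRNS1 and TRNC were the lowest 3 in both. The pooled values of the ribosomal RNA genes changed order between replicates: RNR1, for the small subunit, was at 0.764% and 2.12%, and RNR2 at 0.673% and 2.31%. Their median CpGs did not, with 0.663% and 2.01% in RNR1 and 0.677% and 2.36% in RNR2. In RNR1, position 1488 alone held 2229 methylated reads in replicate 1. Such values rest on 1 to 4 CpGs for a tRNA gene and on 31 and 41 CpGs for the ribosomal RNA genes.

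**Figure D3:**
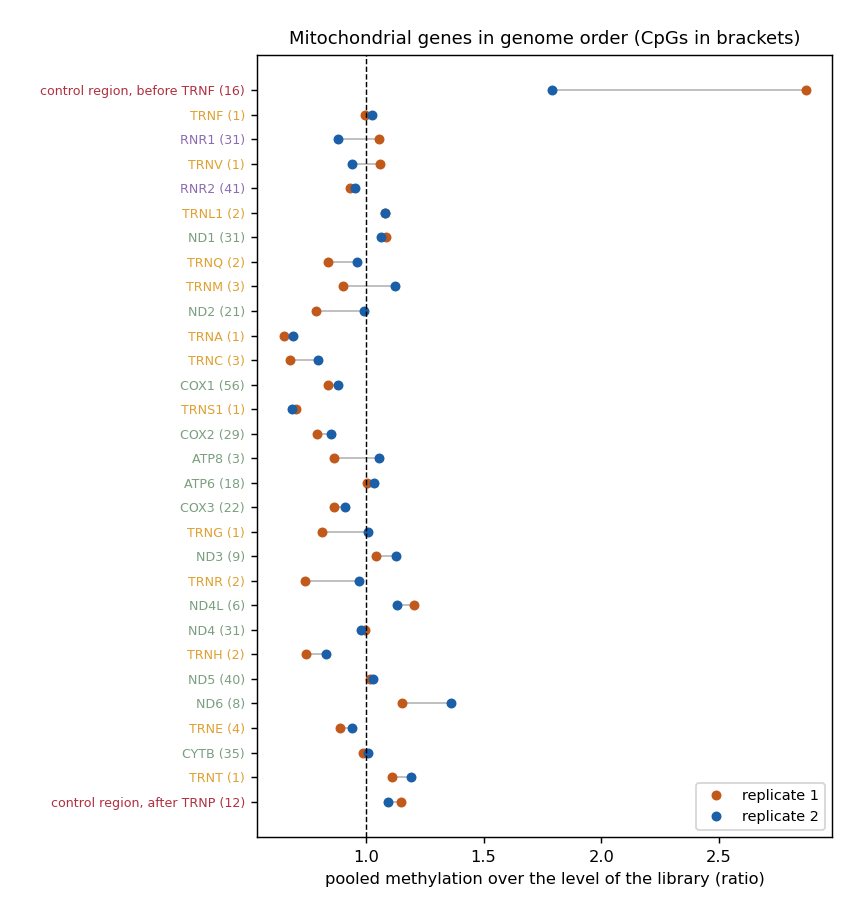
Pooled methylation of each mitochondrial gene with a CpG, and of both ends of the control region, divided by the library level of chrM, in genome order from top to bottom; the 2 points of a row are the replicates and the number of CpGs is in brackets. The control region before TRNF lies at 2.87 and 1.79, ND6 at 1.15 and 1.36, and COX1, COX2 and COX3 between 0.794 and 0.914 in both replicates.

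Many CpGs stood apart from the library level by more than counting error. The 95% Wilson interval lay above the level in both replicates for 74 CpGs, 17.0% of the 435, against 1.74% of 288 CpGs with at least 100 reads in dense nuclear peaks, set against those peaks' own level. It lay below the level in both for 172 mitochondrial CpGs, 39.5%, against 0% of those nuclear CpGs. The nuclear CpGs had a median of only 110 and 111.5 reads, so their intervals were much wider and the shares are not comparable in depth. At that median depth, even 0 methylated reads gives an interval that reaches above their levels of 0.349% and 1.25%. The 0% was therefore largely fixed by depth and nothing is drawn from it. Above the level in both were 15 of 28 control region CpGs, 48 of 307 in protein genes, 8 of 72 in ribosomal RNA genes and 3 of 24 in tRNA genes. Most departures were small. Of the 435 CpGs, 5 were at least 2 times the level in both replicates, against 4.86% of the nuclear CpGs. At most 0.5 times the level in both were 4 of the 435, against 23.6% of the nuclear CpGs. At about 110 reads, 0 methylated reads already counts as at most 0.5 times the level. In replicate 1, 1 methylated read counts there as at least 2 times it. Those nuclear shares thus reflect low counts and do not measure the size of departures.

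The CpG at position 544, in the control region just before the first gene, was far above all others. It had 5583 methylated of 49903 reads in replicate 1, or 11.2% (95% Wilson interval 10.9% to 11.5%). In replicate 2 it had 8983 methylated of 51806 reads, or 17.3% (17.0% to 17.7%). These are 15.5 and 7.19 times the library level, so the CpG ranked first in both libraries while its ratio was larger in replicate 1. The CpG 19 bp before it, at position 525, had 1.11% and 3.28%, and the next one, at position 624 in TRNF, had 0.720% and 2.47%. The high value was therefore carried by 1 CpG and not by its neighbours. Position 544 alone held 3.52% and 1.87% of the methylated reads of chrM, with 0.227% and 0.259% of its reads.

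Other CpGs at least 2 times the level in both replicates all lay in protein genes. At position 3530 in ND1, 3.35% and 7.25% of 49854 and 51959 reads were methylated, while position 3525, 5 bp away, had 0.797% and 2.30%. At position 8583 in ATP6, 2.38% and 6.69% of 51288 and 39994 reads were methylated, while position 8580, 3 bp away, had 0.405% and 1.46%. Neighbours this close are mostly read by the same fragments, and both pairs differed in both replicates. At position 10933 in ND4 the values were 2.80% and 5.50%, and at position 13642 in ND5 they were 1.90% and 5.24%. Position 13758 in ND5, at 2.40% and 4.79%, lay just under the 2-fold limit, at 3.33 and 1.99 times the level.

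The further 6 of the 12 CpGs highest in both replicates were spread over the control region and complex I. Position 498 had 1.72% and 4.15%, position 411 had 1.28% and 3.92%, and position 80 had 1.22% and 3.47%, all in the control region. Position 14159 in ND6, position 12405 in ND5 and position 10684 in ND4L lay between 1.04% and 1.14% in replicate 1 and between 3.53% and 4.20% in replicate 2. Together the 12 CpGs held 2.66% and 2.65% of the reads of chrM, and 9.70% and 6.64% of its methylated reads.

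The CpG ranked lowest over both replicates was at position 11913 in ND4, with 0.231% and 0.564% of 57167 and 48963 reads methylated. Position 9054 in ATP6 had 0.314% and 0.922% of 68218 and 63329 reads. These are the 2 mitochondrial CpGs that carry an x after the context in both deposited tables, a mark whose meaning is not given in the sources used here. Position 6797 in COX1 had 0.183% and 1.02%, and position 4540 in ND2 had 0.263% and 1.09%. All 4 were at most 0.5 times the library level in both replicates, and position 7996 in COX2, at 0.422 and 0.503 times, lay just outside.

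CpGs largely kept their order between replicates once the library level was taken off. Over the 435 CpGs, log2 of the ratio to the library level gave a Pearson r of 0.862 and a Spearman rho of 0.852, as a description over CpGs that share molecules and library preparation. The raw percentages gave an r of 0.880, which was 0.718 without position 544 and 0.553 without the 12 highest CpGs. Without those 12, Spearman's coefficient was 0.840, so the order did not rest on them. Within classes, rho of the log2 ratio was 0.872 in protein genes, 0.784 in ribosomal RNA genes, 0.763 in tRNA genes and 0.779 in the control region. Both replicates were above the level at 129 CpGs and both below it at 233, so that 83.2% fell on the same side.

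The agreement had limits at single CpGs. The log2 ratios of a CpG differed between replicates by a median of 0.133, and by over 1 at 5 CpGs. Around the common odds ratio of 3.38 between the libraries, the dispersion was 16.9, where counting error alone gives 1. The 22 highest CpGs of each replicate shared 12, or 54.5% of each list, and so did the 22 lowest. Pairs of neighbouring CpGs within 10 bp showed a rho of log2 ratios of only 0.425 and 0.335 in replicates 1 and 2 over 112 pairs. A CpG's percentage was weakly related to its reads, with a rho of 0.156 and 0.211.

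**Figure D4:**
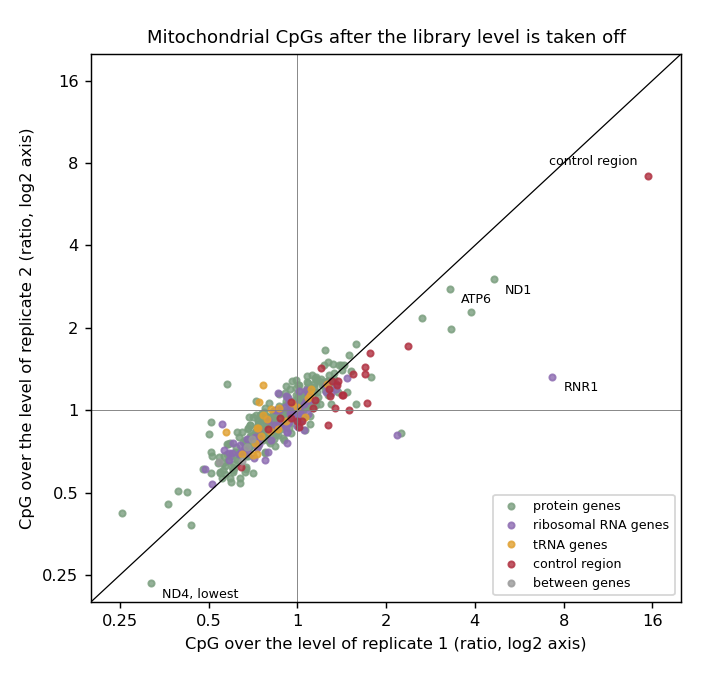
Each mitochondrial CpG's methylation divided by the library level, replicate 1 on the x axis and replicate 2 on the y axis, both on log2 axes and coloured by class; the diagonal marks equal ratios. Most points follow the diagonal, with position 544 of the control region at 15.5 and 7.19, and position 1488 of RNR1 lies far to the right of it at 7.33 and 1.33.

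Taken CpG by CpG, the shift between libraries ran through nearly the whole of chrM. By a two-sided Fisher's exact test with Benjamini-Hochberg adjustment over 478648 CpGs with at least 10 reads in each library, 433 mitochondrial CpGs were higher in replicate 2, against 0.0974% of all CpGs tested. The test called 1 mitochondrial CpG lower in replicate 2, against 0.000627% of all CpGs tested. Among nuclear CpGs, with far fewer reads, 0.0069% were called higher. Reads are not independent molecules, so these p-values are too small. The largest differences, replicate 2 minus replicate 1, were 6.15 points at position 544, 4.31 points at position 8583 and 3.90 points at position 3530.

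The plainest exceptions to the shift lay in RNR1. Position 1488 had 3.20% methylated reads in replicate 2 and 5.30% in replicate 1, the one CpG called lower in replicate 2 (adjusted p = 4.48e-45, Fisher's exact test with Benjamini-Hochberg adjustment). It ranked 29 from the top in replicate 2 and 2 from the top in replicate 1. Position 1484, 4 bases before it in the numbered sequence, had 1.97% in replicate 2 and 1.58% in replicate 1, which is 0.815 and 2.18 times the level. In ND4, position 11492 was likewise at 0.829 times the level in replicate 2 and at 2.25 times in replicate 1. In ND2, position 5399 went the other way, with 3.01% in replicate 2 and 0.417% in replicate 1. Position 16565, the CpG of lowest depth, had 2.57% and 1.24% and was the one not called (adjusted p = 0.222, Fisher's exact test with Benjamini-Hochberg adjustment).

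Reads placed on nuclear copies of mitochondrial DNA bear on these values, since a copy and its source can exchange reads. Of the autosomal peaks, 33 lay on annotated copies and held 1.55% and 0.932% of the CpG reads in peaks. The copy with most reads, chr1:629037-634960, carries pseudogenes of ND1, ND2, COX1, COX2, ATP8, ATP6 and COX3. It has 159 CpGs, and 154 of them were matched by spacing to chrM CpGs at positions 3921 to 9752. The matched CpGs of the copy had 0.468% and 1.73% methylated reads, against 0.604% and 2.19% on chrM, a difference of -0.299 ± 0.230 points (SD, n = 2). The copy held 1.98% and 1.67% as many reads as the matched chrM CpGs.

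The chromosome 1 copy drew its reads at a few places. Its 10 deepest CpGs held 58.3% and 69.5% of its reads, with a peak of 14807 and 17093 reads opposite position 8855 in ATP6, where chrM had 34011 and 29496 reads. In the LOC101928626 window printed above, the 7 matched CpGs together had 527 and 466 reads, with 0.380% and 1.29% methylated. The 1 CpG of the MIR12136 hairpin had 13 and 4 reads, none methylated, which allows up to 23.1% and 75%, against 28454 and 18048 reads on chrM.

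The stretch of chrM matched to this copy differed from the rest of chrM. Its 163 CpGs had 0.607% and 2.19% methylated reads, against 0.782% and 2.52% elsewhere on chrM, a difference of -0.251 ± 0.106 points (SD, n = 2). Of the 12 highest CpGs only position 8583 lies within the stretch, and the others, with position 544, raise the value elsewhere. The difference without the 12 was not computed and would be smaller in size. Reads per CpG in the stretch were 0.870 and 0.805 times those of the rest. COX1 and COX2 lie wholly within the stretch and COX3 runs past its end, so for COX1 and COX2 the gene and the stretch cannot be told apart. Complex I genes have CpGs on both sides of its edge. The 32 within it were at 0.764 and 0.917 times the library level, and the 114 outside it at 1.07 and 1.08 times. Without the 12 highest CpGs, which the level still counts, those outside were at 0.979 and 1.02 times. Complex V genes, ATP8 and ATP6, also lie within the stretch but were at 1.01 and 1.05 times the level, or at 0.891 and 0.966 times without position 8583. The part that copies play in the chrM values was not tested.

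**Figure D5:**
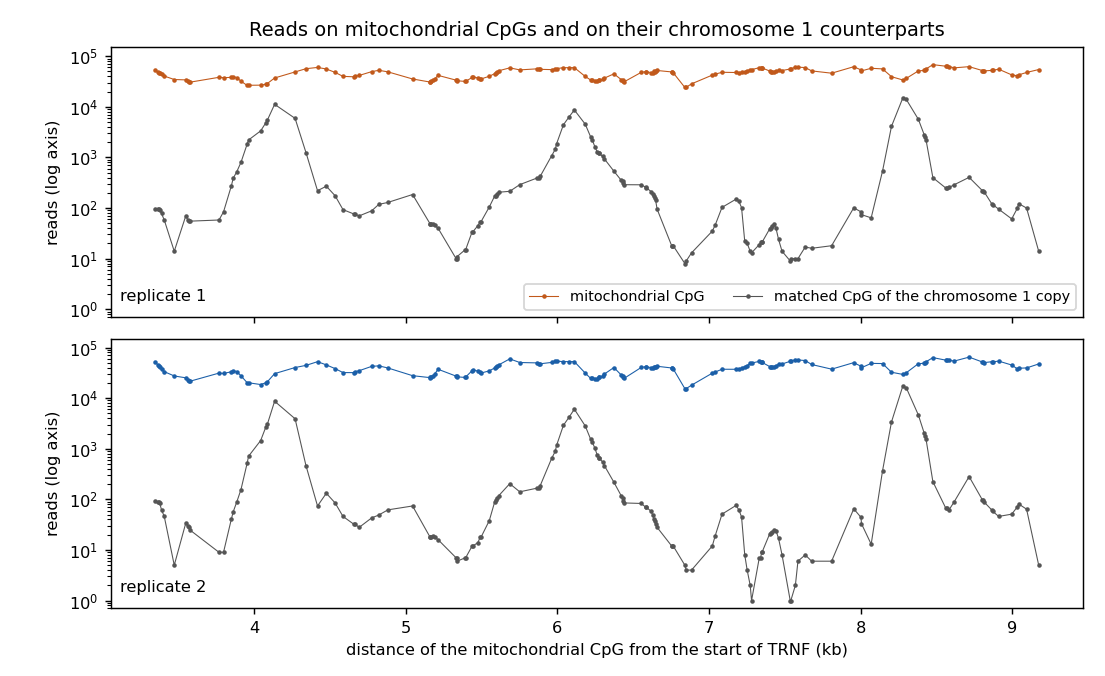
Reads on a log axis at 154 mitochondrial CpGs (coloured) and at the matched CpGs of the chromosome 1 copy (grey), replicate 1 above replicate 2, against the distance of the mitochondrial CpG from the start of TRNF in kb. Mitochondrial reads stay within one order of magnitude, while reads on the copy reach 14807 and 17093 at their deepest and drop to 8 and 1 at their lowest.

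Partners of the high CpGs had few reads on the copies. On the chromosome 1 copy the partner of position 8583 had 0 of 74 reads methylated in replicate 1, which allows up to 4.05%, and 1 of 33 in replicate 2. A copy on the reverse strand, chr5:134925098-134928532, has 61 matched CpGs. At the partner of position 10933 it had 0 of 253 and 0 of 117 methylated reads, which allow up to 1.19% and 2.56%, against 2.80% and 5.50% on chrM. At the partner of position 13642 it had 1 of 62 and 2 of 41 methylated reads, against 1.90% and 5.24% on chrM. A difference there was not tested, and the reads are few. The low CpGs at positions 6797 and 4540 were below the level of the chromosome 1 copy too, with 0.158% and 0.523% of 2528 and 1531 reads and with 0.271% and 1.12% of 2211 and 712 reads. Those at positions 9054 and 7996 had fewer reads there and did not show this: the partner of position 9054 had 0 of 398 and 4 of 224 reads methylated, and that of position 7996 had 0 of 45 and 1 of 23. The counts of 0 allow up to 0.754% and 6.67%. The partners of positions 6797 and 4540 rested on 4 and 8 and on 6 and 8 methylated reads. Matched CpGs on either side of them on the copy were also below its level. Those beside 4540 were 4531, with 0.216% and 0.576%, and 4620, with 0.149% and 1.10%. Those beside 6797 were 6761, with 0.397% and 1.31%, and 6807, with 0.268% and 0.511%. Low values on the copy were thus not particular to the low CpGs. A short copy, chr17:22524395-22524621, annotated as MTRNR2L1, was higher than chrM. Its 7 matched CpGs had 1.42% and 3.49%, against 0.735% and 2.35% on chrM, where the dip at the end of RNR2 lies.

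Nuclear genes that maintain mitochondrial DNA were little methylated at their starts, as were most protein-coding genes. Of 26 genes in a list that covers replication, transcription and packing of mitochondrial DNA, 21 had a measured start, and 21 of 21 were under 20% methylated in both replicates, against 91.2% of 11898 protein-coding genes. A peak lay within 1000 bp of 21 of 21, against 81% of those genes. TFAM was at 0.549% and 0.597%, the polymerase gene POLG at 0.252% and 0.938%, and the mitochondrial RNA polymerase gene POLRMT at 0.432% and 0.932%. LIG3, which seals breaks in mitochondrial DNA, had the largest spread, with 9.81% and 1.04%. DNMT1, a DNA methyltransferase that some studies place in mitochondria, was at 0.433% and 1.63%.

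In the TFAM promoter printed above, 29 CpGs had 1548 and 785 reads, with 0.517% and 0.382% methylated. None of its CpGs had more than 3 methylated reads in either replicate.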

How the data were processed

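ATAC-Me libraries of H9 cells, 2 replicates of 1 group, were analysed. Per replicate, the authors deposited one CpG table giving a methylated fraction (0 to 1) and a count of covering reads. The authors also deposited 1 peak list with a score, a peak signal and the −log10 of the q-value; peaks were used here by position, and the signal only to describe them. Trim Galore, Genrich and the build hg38 (GRCh38) were used, per the submitters' processing notes. The mapper, the methylation caller, and the handling of duplicate reads and of reads that match several places were not given in the sources used here.

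Methylated reads were the fraction times the count, whole within 0.1 at 100% of mitochondrial CpGs. Positions are counted from 1: the tables count from 0, as 34358 CpGs of RefSeq promoter sequences showed. Regional methylation was methylated reads divided by all CpG reads of the region, per replicate, with the mean and SD over 2 replicates. No molecular identifiers are named, and reads are then not independent, so Wilson intervals cover counting error only and Fisher p-values are too small. Gene positions came from RefSeq (GRCh38.p14). Copies were matched to chrM by the spacing of CpGs, within 2 bp; gene starts were measured within 500 bp with at least 20 reads, the start being taken from the RefSeq promoter table in place of the planned gene end. Fisher's exact test was run with Python 3.11.15, numba 0.67.0 and scipy 1.17.1 over all CpGs at an adjusted threshold of 0.05, and its code was checked on simulated data.

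The members, lists and tests were chosen with earlier results of these data known. CpGs were named by a rule: the 12 whose smaller ratio to the library level was largest, the 5 whose larger ratio was smallest, and the 3 of largest difference between replicates among those called. The CpGs at positions 1488, 1484, 11492, 5399, 16565, 315, 3126, 13405 and 10670 were chosen after their values were seen. Alternatives covered read minimums, weighting, the interval, the nuclear set, CpGs left out and each replicate left out. Chromosome X entered no nuclear comparison except the Fisher test.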

Additional observations from a re-analysis of the deposited data

How the results depend on the processing

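Class differences depended most on a few CpGs. Without the highest CpG, an alternative added after seeing the data, protein genes minus the rest of chrM was 0.0219 points in place of -0.0968, tRNA genes minus the rest -0.0727, and the control region minus the rest 0.307. Without the 12 highest CpGs these were -0.00832, -0.0262 and 0.243, and over medians of CpGs -0.0150, -0.0592 and 0.348. On the log2 ratio scale, which is another unit, protein genes were at -0.14 and tRNA genes at -0.15. Without the 2 CpGs marked with an x, tRNA genes were at -0.112. The difference from nuclear CpGs outside peaks came to -13.5 points with a minimum of 10 reads per nuclear CpG. CpGs above the level in both replicates numbered 122 against the median CpG and 5 at 2-fold; with either replicate left out, which leaves 1 library, they numbered 89 to 124. CpGs below it numbered 4 at 2-fold. Pearson's r was 0.553 without the 12 highest CpGs and 0.718 without the highest. The causes were not tested. With 1 replicate left out, correlations and the replicate test had no value. The log2 ratio of the median CpG to the median dense peak, and r of log2 ratios without the 12, were also added after seeing the data, and planned ratios were computed as log2 ratios. Of the other alternatives to these main results, 88 moved a value by no more than its spread, a correlation by no more than 0.1, or a count by no more than 1.5 times. Many of the 88 could not have come out otherwise. In 25 of them 1 replicate was left out. Most of these were means, and a mean of 2 replicates then always stays within its SD. Those that were counts of CpGs above or below the level could have moved. Minimums of 10 and 500 reads left out no mitochondrial CpG, so they returned the main values. No paired analysis was possible because there was 1 group. The 2 libraries limit every difference; depth limits the nuclear copies and the CpGs of dense peaks, not chrM.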
